A study of Homo sapiens with 6 samples.

Results

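The genes described here encode the core proteins of the spliceosome, the RNA-protein machine that removes introns from pre-mRNA. They were chosen by name, by a rule that used no measured value, but with earlier results of these data known. The list holds proteins of the U1, U2, U4/U6 and U5 small nuclear ribonucleoproteins (snRNPs) and the SF3A and SF3B complexes. It also holds the U2AF and SF1 factors, the PRPF proteins and associated factors. Of 48 genes listed, 46 have a row among the 16715 identifiers of the table, and SF3A3 and TXNL4A were not analysed here. The RNA came from HCT116, an established human colorectal carcinoma line, at passages 7 to 10. There were 3 control libraries and 3 libraries from cells given 5aza at 5 µM for 48 hours and then kept in new medium for another 48 hours. No source used here says what the control cells received, or that the 3 libraries of a group came from separate cultures, so the p-values measure the spread between these libraries, which may be technical. The study's stated subject is DNA methylation and alternative transcripts.

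Each snRNP is built on a small nuclear RNA. U1 pairs with the 5′ splice site, SF1 and the U2AF heterodimer bind the branch point and the 3′ splice site, and U2 then replaces SF1 at the branch point. The U4/U6.U5 tri-snRNP joins, U1 and U4 leave, and the Prp19 complex stabilises the active centre, in which U6 and U2 catalyse both steps. A ring of Sm proteins surrounds the RNA of U1, U2, U4 and U5, and a related ring of LSM proteins holds the end of U6. The labels call the agent 5aza in titles and protocols and DAC in the descriptions. These names are commonly used for a pair of different drugs, 5-azacytidine and its deoxy form decitabine, so which one was used is uncertain. Both are cytidine analogues that, once in DNA, trap DNA methyltransferases, and 5-azacytidine also enters RNA.

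Values are FPKM, that is fragment counts scaled to transcript length and library size, so levels may be compared between genes. The epithelial genes EPCAM, CDH1, KRT8, KRT18, KRT19, CLDN7 and CDX2 were at 8.63 FPKM or more in every library, while LGALS4, also on the epithelial list, was at 0.412 FPKM or less. Of these, CDH1, KRT8, KRT18 and KRT19, which encode E-cadherin and simple-epithelial keratins, rose (log2 fold changes 0.35, 0.23, 0.26 and 0.34), EPCAM fell (-0.12, limma adjusted p = 0.0213), and CLDN7 and CDX2 did not pass. Among genes of other cell types, COL1A1, a collagen gene, was at 4.49 to 4.77 FPKM in control libraries and rose, to 6.38 to 7.24 FPKM after 5aza, while PTPRC, CD3E, PECAM1, COL3A1, ALB and GFAP were each at 0.857 FPKM or less. The part of these marker changes in the results was not tested. In RNA from whole cultures, fewer cells that express a gene and less RNA per cell cannot be told apart.

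Many core spliceosome genes were lower after 5aza, among them 6 of 7 genes of the Sm ring, 5 of 7 of the LSM ring and all 3 of the U1 snRNP; differences between complexes were not tested. Of the 46 genes, 25 fell (54.3%), 0 rose and 21 did not pass, where a gene is said to have fallen or risen when its limma adjusted p was under 0.05. Of all 12360 genes tested, 13.1% fell and 10.6% rose (23.7% in either direction). The log2 fold change was below 0 in 45 of the 46, against 52% of all genes tested. At an unadjusted limma p under 0.05, 30 of the 46 were lower and 0 were higher. Of all 12360 genes tested, 2511 were lower and 2096 were higher at that threshold. The median log2 fold change of the 46 was -0.19, and that of all genes tested was -0.01. Fold changes are on the log2(FPKM + 0.1) scale, and all 46 genes passed the filter on low values (0.5 FPKM in at least 3 libraries). For 34 genes the groups did not overlap, with each of the 34 lower after 5aza, against 22.6% of all genes tested. The 46 genes together took 0.838% to 0.848% of the summed FPKM in control libraries and 0.764% to 0.777% after 5aza, ranges that do not overlap.

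**Figure D1:**
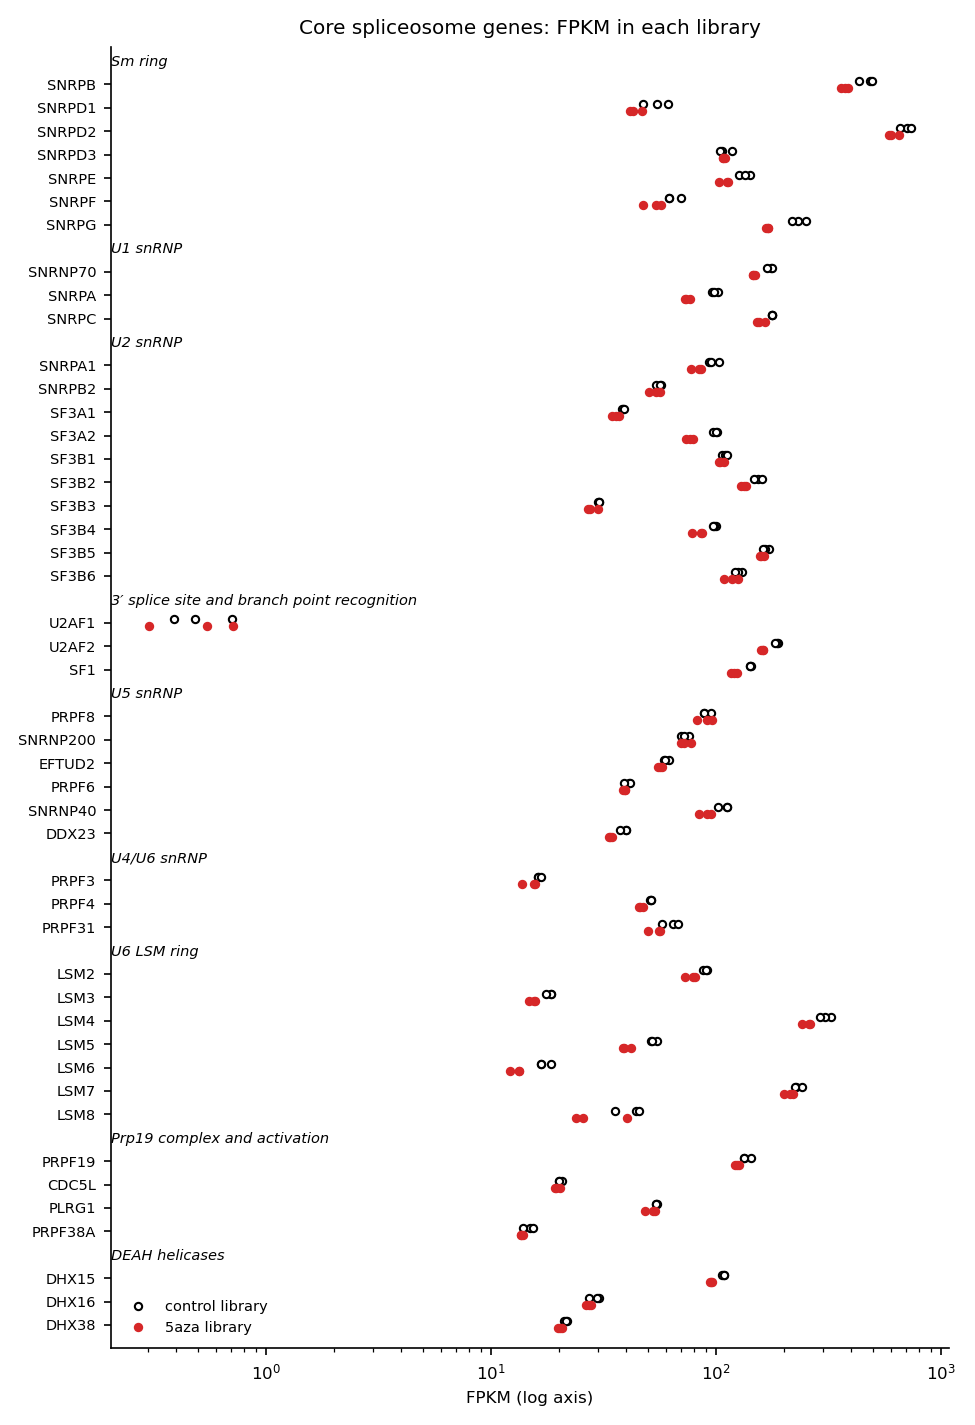
FPKM (log axis) of each of the 46 core spliceosome genes in the 3 control libraries (open points) and the 3 5aza libraries (filled points), grouped by complex. Most genes lie between 10 and 1000 FPKM with the filled points to the left of the open ones; U2AF1 stands apart at 0.302 to 0.716 FPKM.

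The size of the fall depends on how libraries are scaled. With each library scaled to the same total FPKM, 18 of the 46 genes fell (39.1%), against 6.30% of all genes tested. The median of the 46 genes was then -0.11, while the median of all genes tested was 0.07. The distance between both medians was -0.18 log2 units in each case. Such scaling moves all genes of a library by nearly the same log2 amount, so this distance could hardly change. Rises made up 44.7% of all calls as the values stand and 74.2% with libraries scaled to the same total, 54.9% with no filter on low values and 55.6% with the expression trend removed. Once the dependence of fold change on abundance was removed, the distance between the medians was -0.11. In that setting 18 of the 46 genes fell (39.1%), against 9.51% of all genes tested. Under 18 alternative settings, 17 of the 25 falls passed in each: SNRPB, SNRPE, SNRPG, SNRNP70, SNRPA, SNRPA1, SF3A2, SF3B2, SF3B4, U2AF2, SF1, SNRNP40, DDX23, LSM3, LSM4, LSM5 and LSM6. The other 8, which did not pass in at least 1 setting, were SNRPD1, SNRPD2, SNRPF, SNRPC, PRPF4, LSM2, PRPF19 and DHX15.

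**Figure D2:**
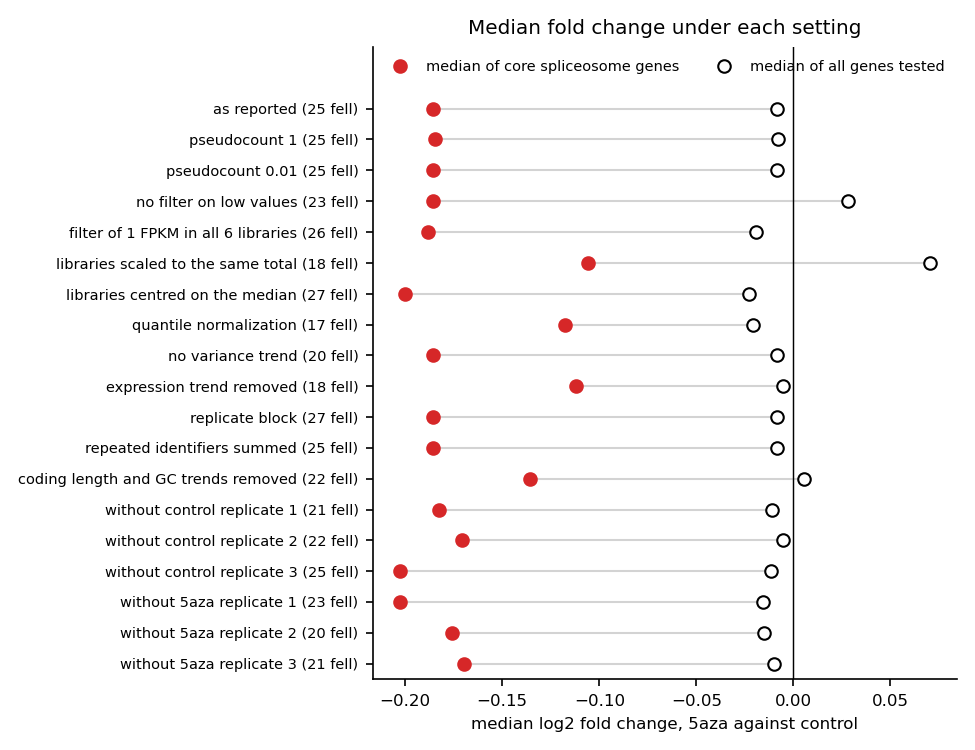
Median log2 fold change (5aza against control) of the core spliceosome genes (filled) and of all genes tested (open) as reported and under each of the 18 alternative settings, with the number of core spliceosome genes that fell in brackets. The filled point is to the left of the open point in each line, and the number that fell runs from 17 to 27.

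The starts of 4 members are shown because both drugs named above are cytidine analogues that enter DNA. These 4 genes also lie towards both ends of the range of changes, though not all at its extremes. SNRPG and LSM5 are ring genes that fell, and SNRNP200 and PRPF8, which encode the helicase and the scaffold of U5, did not pass. Sequences are from RefSeq on GRCh38.p14, where 42 of the 46 genes have a promoter entry of 300 bases, 250 before and 50 after the start. The 150 bases directly before the most upstream start listed there are given 5′ to 3′ on the gene's strand, with matches of the ETS family motif CCGGAAG (or its reverse complement CTTCCGG) in capitals.
SNRPG (chr2:70293459-70293608, minus strand): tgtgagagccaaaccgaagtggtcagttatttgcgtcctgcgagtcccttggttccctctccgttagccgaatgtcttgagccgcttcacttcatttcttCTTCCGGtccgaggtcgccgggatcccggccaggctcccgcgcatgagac
LSM5 (chr7:32495284-32495433, minus strand): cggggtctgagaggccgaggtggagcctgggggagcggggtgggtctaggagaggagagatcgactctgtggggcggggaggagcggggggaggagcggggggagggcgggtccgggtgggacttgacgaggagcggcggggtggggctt
SNRNP200 (chr2:96305547-96305696, minus strand): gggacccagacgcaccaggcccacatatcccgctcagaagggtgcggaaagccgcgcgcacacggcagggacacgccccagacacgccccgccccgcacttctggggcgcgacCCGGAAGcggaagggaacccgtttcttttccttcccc
PRPF8 (chr17:1684868-1685017, minus strand): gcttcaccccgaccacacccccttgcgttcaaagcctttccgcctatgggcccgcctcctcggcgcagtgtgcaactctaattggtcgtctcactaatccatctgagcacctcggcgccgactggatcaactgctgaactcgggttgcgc
The motif stands before the start of SNRPG, which fell, and of SNRNP200, which did not pass, and in neither of the other 2 stretches. In LSM5 a match begins at position -227 relative to the start, inside the 300-base entry but upstream of the stretch shown, and the entry of PRPF8 holds none. By GENCODE release 29, the SNRNP200 stretch lies outside every annotated gene. The SNRPG stretch lies in the span of SNRPG, which has a start further upstream, but in no exon. The LSM5 stretch holds 8 exonic bases of AVL9 on the plus strand. The PRPF8 stretch holds 15 exonic bases of PRPF8 and lies in an exon of AC130343.2 on the plus strand.

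Over the whole 300 bases and both strands, the ETS motif was found in 20 of 42 member promoters (47.6%), against 19.1% of 9419 promoters of genes tested and 10.7% of 26246 promoters. It was in 11 of 23 promoters of members that fell and in 9 of 19 of members that did not pass. The GC box GGGCGG was in 69.0% of member promoters and 72.0% of those of genes tested, and the CCAAT box (CCAAT) in 42.9% and 36.6%. The E-box CACGTG was in 2 member promoters (4.76%), of EFTUD2 and SF3B1, against 10.2% of those of genes tested. No match of one of these 4 motifs overlapped a match of another in the member promoters. The promoters are rich in CpG, the dinucleotide that is methylated in human DNA: the median was 27 CpGs in 300 bases for members that fell, for members that did not pass and for all genes tested, and 14 over all promoters. Methylation was not measured in the table used here, and a motif match is a description of letters, not of binding.

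The Sm ring is common to U1, U2, U4 and U5, and its 7 proteins are made in the cytoplasm and loaded on the RNA there. Of its 7 genes, 6 fell, 0 rose and 1, SNRPD3, did not pass, with a median log2 fold change of -0.29. SNRPG (ENSG00000143977, chromosome 2, 70281362 to 70293771 on GRCh38), whose start is shown above, encodes SmG, which enters the ring together with the SNRPE and SNRPF proteins. It was at 253, 233 and 218 FPKM in control libraries and at 171, 167 and 171 FPKM after 5aza. All 3 5aza values lie below the lowest control value, and the mean fell (234 ± 17.4 in control and 169.7 ± 2.01 FPKM after 5aza, SD, n = 3 libraries), with a log2 fold change of -0.46 (standard error 0.051, limma adjusted p = 9.80e-04). SNRPE was at 142, 127 and 134 FPKM in control libraries and at 112, 103 and 113 FPKM after 5aza, with no overlap (log2 fold change -0.29, adjusted p = 0.00664). SNRPF was at 70.1, 61.9 and 61.7 against 54.4, 47.5 and 57.2 FPKM. The groups of SNRPF do not overlap (log2 fold change -0.28, adjusted p = 0.0344).

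SNRPB, which encodes SmB and SmB′ and is a classic target of lupus autoantibodies, was at 484, 497 and 433 FPKM in control libraries and at 377, 385 and 358 FPKM after 5aza. Its mean fell (471 ± 33.7 in control and 373 ± 13.8 FPKM after 5aza, SD, n = 3 libraries), with a log2 fold change of -0.33 (standard error 0.055, limma adjusted p = 0.00504), with no overlap. SNRPD2 was the most abundant of the 46 genes, at 704, 734 and 661 FPKM in control libraries and 651, 603 and 588 FPKM after 5aza. The lowest control and highest 5aza values of SNRPD2 are close (log2 fold change -0.19, adjusted p = 0.0356). SNRPD1, the partner of SNRPD2 in the ring, was at 54.8, 47.2 and 61.4 against 41.4, 46.7 and 42.7 FPKM. Its groups touch without overlapping (log2 fold change -0.31, SE 0.092, adjusted p = 0.0440). SNRPD3, the partner of SNRPB, was at 118, 107 and 104 FPKM in control libraries and at 110.1, 108 and 107 FPKM after 5aza. These overlap, the log2 fold change was -0.01 (adjusted p = 0.875), and its sign turned (0.0674) with libraries scaled to the same total and (0.0401) without control replicate 1.

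Leaving out 1 library ended 3 of the 6 Sm calls. SNRPD1 did not pass without control replicate 1 (limma adjusted p = 0.105), control replicate 3 (0.0866) or 5aza replicates 1, 2 or 3 (0.122, 0.0582 and 0.119). SNRPD2 did not pass without control replicates 1 or 2 (0.0909 and 0.104) or 5aza replicates 2 or 3 (0.106 and 0.117), nor SNRPF without control replicates 1 or 2 (0.0945 and 0.0595) or 5aza replicates 1 or 2 (0.0672 and 0.0793). These 3 genes also did not pass under same-total scaling, quantile normalization, a constant prior variance or removal of the expression trend, SNRPD1 and SNRPD2 did not pass with no filter or with coding length and GC trends removed, and SNRPD1 (adjusted p = 0.0681) did not pass with the replicate block. The 7 proteins occupy the ring in equal numbers, but control means spanned from 54.5 FPKM (SNRPD1) to 699.7 FPKM (SNRPD2), a ratio of 12.8, and the ratio after 5aza was 14.1. Pseudogenes named for these genes in the annotation number 20 for SNRPG, 9 for SNRPE, 4 for SNRPF, 2 for SNRPD2 and 1 for SNRPB, and reads may have been shared with them, so these levels are uncertain.

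**Figure D3:**
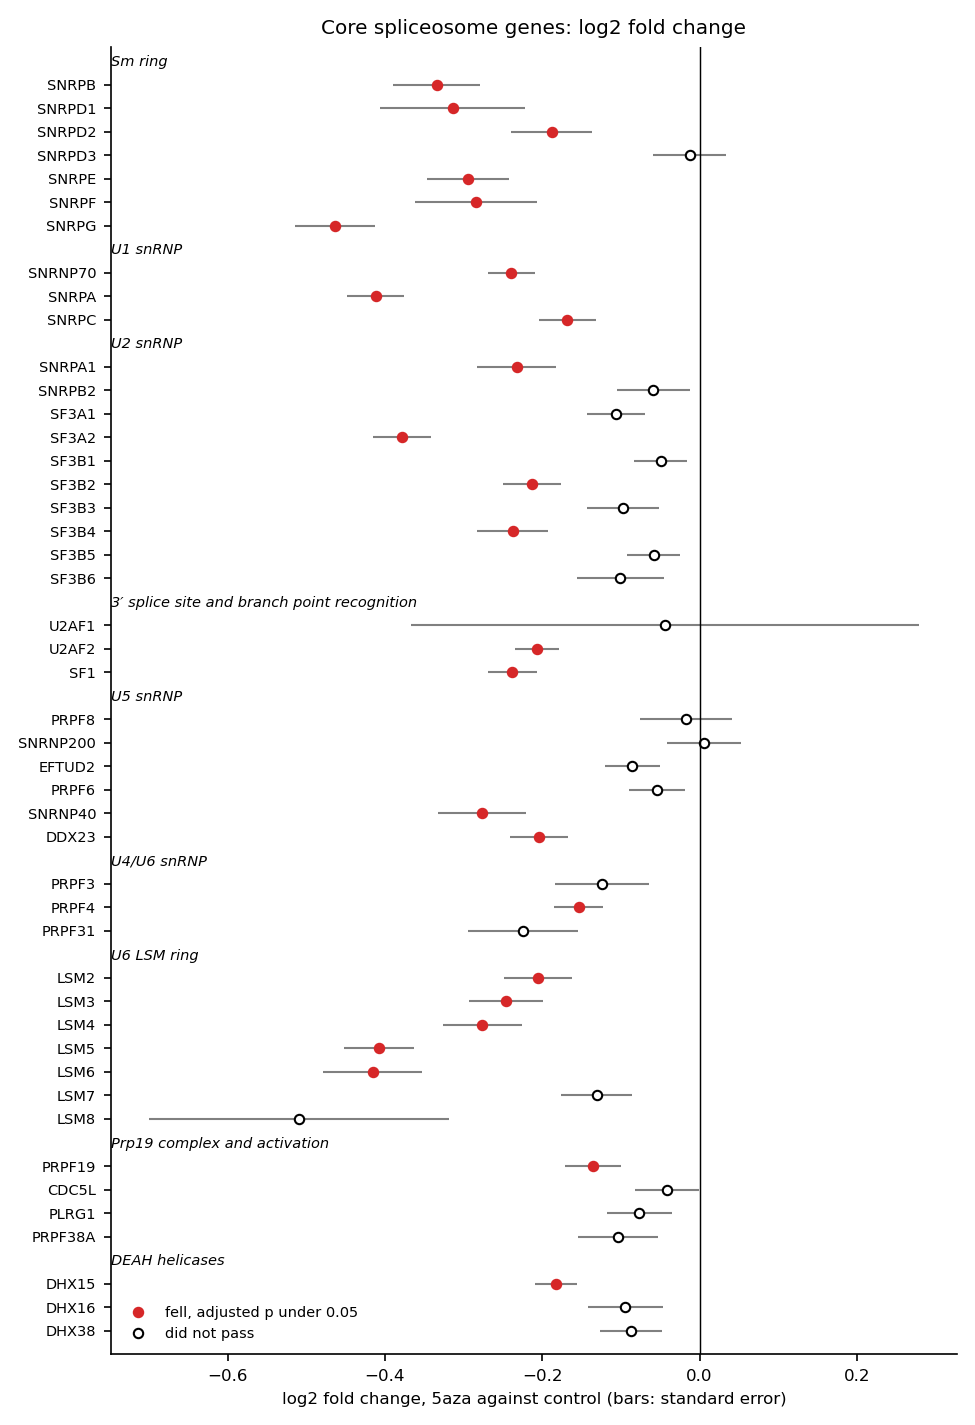
Log2 fold change of FPKM + 0.1 (5aza against control, bars: standard error) for each of the 46 core spliceosome genes, grouped by complex; filled points fell at a limma adjusted p under 0.05. All but SNRNP200 (0.01) lie to the left of 0, and the 3 U1 snRNP genes, 6 of 7 Sm genes and 5 of 7 LSM genes are filled.

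The LSM ring has the same fold and is specific to U6, and LSM2 to LSM7 also form, with LSM1, a cytoplasmic ring of mRNA decay. In this ring 5 of 7 genes fell and LSM7 and LSM8 did not pass, with a median log2 fold change of -0.28. LSM5 (ENSG00000106355, chromosome 7, 32485332 to 32495283) was at 54.9, 51.4 and 52.1 FPKM in control libraries and 42.0, 38.6 and 38.9 FPKM after 5aza. The gap between the groups is larger than the range within either, and the mean fell (52.8 ± 1.81 in control and 39.8 ± 1.88 FPKM after 5aza, SD, n = 3 libraries), with a log2 fold change of -0.41 (standard error 0.045, limma adjusted p = 9.66e-04). LSM6 was at 18.6, 16.7 and 16.7 FPKM in control libraries and 13.4, 12.2 and 13.3 FPKM after 5aza, again with no overlap (log2 fold change -0.42, adjusted p = 0.00369). LSM4, whose tail is rich in arginine and glycine, was the most abundant of the ring, at 326, 306 and 289.9 against 261, 258 and 241 FPKM (log2 fold change -0.28, adjusted p = 0.00770). LSM3 was at 18.5, 18.6 and 17.5 FPKM in control libraries and 15.7, 14.8 and 15.5 FPKM after 5aza (log2 fold change -0.25, adjusted p = 0.00920). LSM3 and LSM4 groups do not overlap.

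LSM2 was at 90.9, 88.0 and 90.5 FPKM in control libraries and 79.5, 73.3 and 81.0 FPKM after 5aza (log2 fold change -0.21, adjusted p = 0.0130). It did not pass with libraries scaled to the same total (adjusted p = 0.0860), under quantile normalization, or with the trends on expression or on coding length and GC content removed. LSM7 was at 228, 242 and 226 against 221, 214 and 200.1 FPKM, without overlap but short of the threshold (log2 fold change -0.13, adjusted p = 0.0722). It passed with libraries centred on the median (adjusted p = 0.0467) and with the replicate block (0.0446). LSM8, which sets the nuclear ring apart from the cytoplasmic one, had the lowest log2 fold change of the 46 genes (-0.51, SE 0.19) and did not pass (adjusted p = 0.0936). Its values were 44.0, 35.6 and 45.6 FPKM in control libraries and 40.4, 24.0 and 25.6 FPKM after 5aza, so that 5aza replicate 1 lies among the controls. Without 5aza replicate 1, LSM8 passed (log2 fold change -0.74, adjusted p = 0.00882), as it did with the replicate block (adjusted p = 0.0402). As in the Sm ring, levels differed widely, from 17.3 (LSM6) to 307 FPKM (LSM4) in control means, a ratio of 17.8.

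Each Sm protein has an LSM counterpart at the same place in the ring, and 4 of the 7 pairs had both genes fall: SNRPD1 with LSM2, SNRPD2 with LSM3, SNRPE with LSM5, and SNRPF with LSM6. The remaining 3 pairs, SNRPB with LSM8, SNRPD3 with LSM4 and SNRPG with LSM7, had 1 gene each that fell. The log2 fold changes in those were -0.33 and -0.51, -0.01 and -0.28, and -0.46 and -0.13. Levels within pairs differed in either direction: SNRPD2 was 38.5 times as abundant as LSM3 in control means, whereas SNRPD3 was at 0.357 times the level of LSM4. With 4 pseudogenes named for LSM3, 2 for SNRPD2 and 1 for LSM6, the levels of these genes, and the first of these ratios, are uncertain.

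All 3 proteins specific to U1 had falling genes, with a median log2 fold change of -0.24. SNRPA (ENSG00000077312, chromosome 19, 40750637 to 40765389), the A protein of U1, which binds a stem-loop of U1 RNA, had the smallest adjusted p of the 46 genes. It was at 96.3, 103 and 97.9 FPKM in control libraries and at 73.0, 73.3 and 76.7 FPKM after 5aza. The gap between groups exceeds the range within either, and the mean fell (98.9 ± 3.26 in control and 74.4 ± 2.07 FPKM after 5aza, SD, n = 3 libraries), with a log2 fold change of -0.41 (standard error 0.036, limma adjusted p = 4.08e-04). SNRNP70, which encodes U1-70K, the U1 protein that contacts SR proteins, was at 176, 177 and 169 FPKM in control libraries and 146, 149.7 and 147 FPKM after 5aza (log2 fold change -0.24, adjusted p = 0.00167). SNRPC, the C protein of U1, which steadies the pairing with the 5′ splice site, was at 177 FPKM in each control library and at 166, 155 and 152 FPKM after 5aza (log2 fold change -0.17, adjusted p = 0.0148). The SNRPC call was lost without 5aza replicate 2 (limma adjusted p = 0.0569) or 5aza replicate 3 (0.0548), as well as under same-total scaling, quantile normalization, a constant prior variance or removal of the expression trend. SNRPC has 18 pseudogenes named for it, so its level is uncertain.

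In the U2 snRNP, 4 of 10 genes with values fell and 6 did not pass, with a median log2 fold change of -0.10. SF3A2 (ENSG00000104897, chromosome 19, 2236504 to 2248679), of the SF3A complex that joins U2 with the SF3B complex, was at 96.7, 102 and 99.9 FPKM in control libraries and 76.6, 73.7 and 79.1 FPKM after 5aza. No 5aza value comes near a control value, and the mean fell (99.4 ± 2.51 in control and 76.5 ± 2.69 FPKM after 5aza, SD, n = 3 libraries), with a log2 fold change of -0.38 (standard error 0.037, limma adjusted p = 5.58e-04). SF3B4, mutated in the craniofacial Nager syndrome, was at 100.4, 98.0 and 97.6 against 86.9, 78.0 and 86.3 FPKM (log2 fold change -0.24, adjusted p = 0.00933). SF3B2 (log2 fold change -0.21) and SNRPA1, which binds U2 RNA with SNRPB2 (-0.23), also fell. SF3B5, a small subunit whose gene has 1 coding exon, had the highest mean of the U2 genes at 172, 165 and 162 FPKM in control libraries and 157, 163 and 159 FPKM after 5aza. Its groups overlap (log2 fold change -0.06, adjusted p = 0.253), and the sign turned to 0.02 with libraries scaled to the same total. SF3B1, the branch point clamp that is mutated in myelodysplastic syndromes, averaged 109 FPKM in control libraries and 106 FPKM after 5aza (log2 fold change -0.05, adjusted p = 0.331). Its sign turned to 0.03 under the same scaling. The other 4 that did not pass, SNRPB2, SF3A1, SF3B3 and SF3B6, had log2 fold changes between -0.11 and -0.06.

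Of the 3 factors that mark the branch point and the 3′ splice site, SF1 and U2AF2 fell and U2AF1 did not pass. SF1 (ENSG00000168066, chromosome 11, 64764606 to 64778786), the branch point binding protein, was at 142, 143 and 142 FPKM in control libraries and 120.5, 117 and 125 FPKM after 5aza. Its mean fell (142 ± 0.606 in control and 121 ± 3.74 FPKM after 5aza, SD, n = 3 libraries), with a log2 fold change of -0.24 (limma adjusted p = 0.00204). U2AF2, which binds the polypyrimidine tract, was at 188, 187 and 183 against 163, 163 and 158 FPKM (log2 fold change -0.21, adjusted p = 0.00245). Both genes changed by more than the spread between libraries.

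U2AF1 (ENSG00000160201, chromosome 21, 43092956 to 43107587), the subunit that reads the AG at the 3′ splice site, was at 0.710, 0.483 and 0.392 FPKM in control libraries and 0.302, 0.546 and 0.716 FPKM after 5aza. These are far below its partner U2AF2, whose control mean was 352 times as high. A second copy, U2AF1L5, is annotated at chromosome 21, 6484623 to 6499261, and had means of 0.279 and 0.119 FPKM. Of 1921 distinct 50-base words in U2AF1's coding transcripts, 1792 (93.3%) also occur in transcripts of U2AF1L5, so reads that match both copies can be lost or split in counting. Whether that sets the low values was not tested, and the U2AF1 level and its log2 fold change (-0.04, SE 0.32, adjusted p = 0.937) are uncertain.

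The U5 snRNP holds the exons during catalysis, and its 2 genes of longest coding sequence, PRPF8 and SNRNP200, had log2 fold changes near 0. Of 6 genes with values, 2 fell, 0 rose and 4 did not pass, with a median log2 fold change of -0.07. PRPF8 (ENSG00000174231, chromosome 17, 1650629 to 1684882), the scaffold of the active centre, was at 88.5, 95.2 and 88.5 FPKM in control libraries and 82.3, 95.9 and 91.1 FPKM after 5aza. Its groups overlap, with means of 90.7 ± 3.87 and 89.8 ± 6.88 FPKM (SD, n = 3 libraries; log2 fold change -0.02, limma adjusted p = 0.861). SNRNP200 (ENSG00000144028, chromosome 2, 96274336 to 96305515), the Brr2 helicase that unwinds U4 from U6, was at 70.1, 75.9 and 72.2 FPKM in control libraries and 70.1, 77.3 and 71.8 FPKM after 5aza. The groups overlap fully (log2 fold change 0.01, SE 0.047, adjusted p = 0.941), and the sign of SNRNP200 turned to -0.0084 with libraries centred on the median and that of PRPF8 to 0.06 with libraries scaled to the same total. EFTUD2, a GTPase, and PRPF6, which bridges U5 and U4/U6, had log2 fold changes of -0.09 and -0.05 and did not pass.

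By contrast, SNRNP40, a WD-repeat protein of U5, was at 112, 112 and 102 FPKM in control libraries and 94.7, 91.0 and 83.8 FPKM after 5aza, with no overlap (log2 fold change -0.28, SE 0.056, adjusted p = 0.0120). DDX23, the helicase that releases U1, was at 39.9, 39.9 and 37.6 against 33.8, 34.4 and 33.6 FPKM (log2 fold change -0.20, adjusted p = 0.00774). Both calls held under each of the 18 settings. Whether SNRNP40 or DDX23 differs from PRPF8 in its response was not tested.

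Among the 3 genes of U4/U6 proteins on the core list, PRPF4 fell, and PRPF3 and PRPF31 did not pass. PRPF4 was at 51.1, 51.6 and 51.7 FPKM in control libraries and 47.3, 45.8 and 45.6 FPKM after 5aza (log2 fold change -0.15, SE 0.031, adjusted p = 0.0118). That call was lost with libraries scaled to the same total (adjusted p = 0.140), under quantile normalization and with the expression trend removed. PRPF31, like PRPF3 and PRPF4 a gene of inherited retinitis pigmentosa, was at 64.3, 67.9 and 57.6 against 56.3, 56.0 and 50.1 FPKM. The groups do not overlap, but the change missed the threshold (log2 fold change -0.22, SE 0.069, limma adjusted p = 0.0522). It passed without control replicate 3 (limma adjusted p = 0.0182) and with the replicate block (0.00812). PRPF31 also passed with a filter of 1 FPKM in all 6 libraries and with libraries centred on the median. PRPF3 was at 16.1, 16.1 and 16.7 against 15.5, 13.8 and 15.7 FPKM (log2 fold change -0.12, adjusted p = 0.173).

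Of the 4 genes of the Prp19 complex and of activation on the core list, 1 fell and 3 did not pass. Of the 3 genes of DEAH-box helicases on that list, 1 fell and 2 did not pass. PRPF19, the ubiquitin ligase of the complex, was at 134, 143 and 133 FPKM in control libraries and 124, 126 and 122 FPKM after 5aza (log2 fold change -0.14, adjusted p = 0.0308). The PRPF19 call was lost without control replicate 1 (limma adjusted p = 0.0561), control replicate 2 (0.0798) or 5aza replicates 1, 2 or 3 (0.0799, 0.0623 and 0.101), and the log2 fold change was -0.06 with libraries scaled to the same total. PRPF19 has 1 pseudogene named for it and PRPF38A has 2, so their levels are uncertain. PRPF38A, which is needed for activation, was at 14.99, 13.9 and 15.4 against 13.6, 13.9 and 13.7 FPKM (adjusted p = 0.184). CDC5L and PLRG1, core members of the Prp19 complex, had log2 fold changes of -0.04 and -0.08.

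DHX15, which takes the spent spliceosome apart, was at 109, 107 and 109 FPKM in control libraries and 95.5, 94.5 and 95.7 FPKM after 5aza. The mean fell (108 ± 1.15 in control and 95.2 ± 0.679 FPKM after 5aza, SD, n = 3 libraries), with a log2 fold change of -0.18 (limma adjusted p = 0.00318), a call lost under quantile normalization (adjusted p = 0.0583). DHX16, which drives the remodelling before the first step, was at 30.2, 29.7 and 27.4 against 27.3, 28.0 and 26.5 FPKM and overlapped (log2 fold change -0.09, adjusted p = 0.194). DHX38, which acts before the second step, had means of 21.5 and 20.3 FPKM (log2 fold change -0.09, adjusted p = 0.148).

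These genes are abundant, and in this table abundant genes fell more often than others. Among genes of 100 FPKM or more (mean of all 6 libraries), 12 of 17 core spliceosome genes fell (70.6%), against 375 of all 926 (40.5%, with 5.62% that rose), and the median log2 fold changes were -0.19 and -0.10. Between 10 and 100 FPKM, 13 of 28 fell (46.4%), against 1085 of 6001 (18.1%, with 9.87% that rose), with medians of -0.18 and -0.03. The 1 member under 10 FPKM was U2AF1, in a band where 2.93% of genes fell and 12.3% rose. Within the 46 genes, the log2 fold change and log2 mean FPKM correlated weakly (Pearson's r -0.20, Spearman's rho -0.20).

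**Figure D4:**
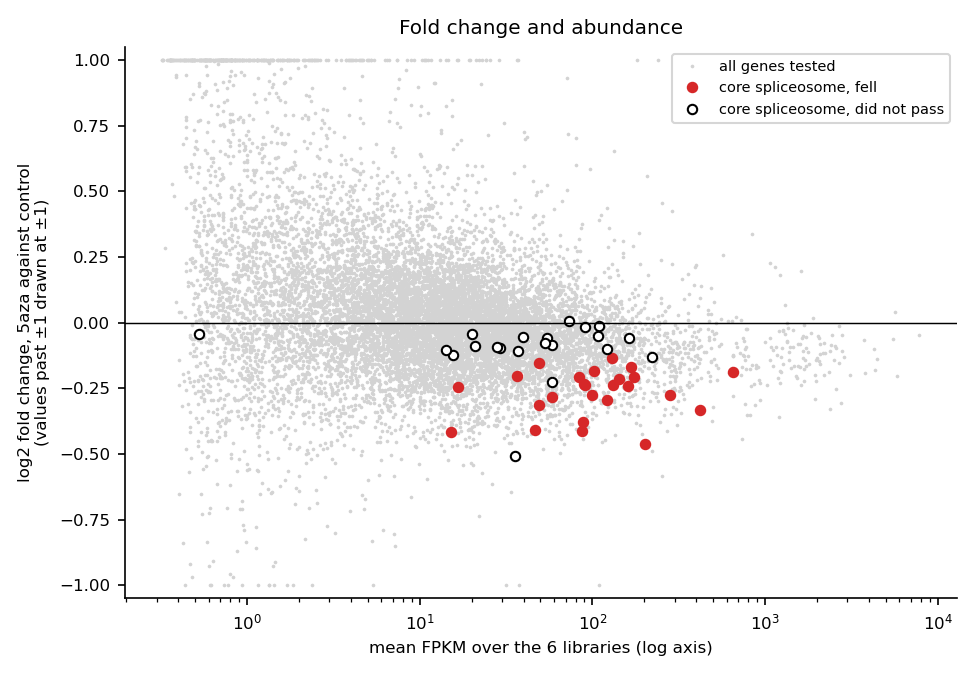
Log2 fold change (5aza against control; values past 1 in size are drawn at 1) against mean FPKM over the 6 libraries (log axis) for all 12360 genes tested (small grey points), core spliceosome genes that fell (filled) and those that did not pass (open). Grey points shift below 0 as abundance grows, and 12 of the 17 core spliceosome genes at 100 FPKM or more are filled.

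Fold change also went with protein size among the members, from small ring proteins to the largest U5 proteins. Over the 46 genes, the log2 fold change and the log2 length of the longest annotated coding sequence had a Pearson's r of 0.52 and a Spearman's rho of 0.53. Over the 11613 genes tested that have a coding length, these were 0.00099 and 0.12. The genes share libraries and are not independent replicates, so these values are descriptions. Of the 23 members with a coding length up to 1171.5 bases (their median), 15 fell (65.2%) with a median log2 fold change of -0.25, and of the 23 longer ones 10 fell (43.5%) with a median of -0.12. Among all genes tested the shares that fell were 16.9% and 11.8%. Exceptions to the order include the short genes SNRPD3 (378 bases) and SF3B5 (258 bases), which did not pass. GC content of the transcript had no such relation in the members (Spearman's rho 0.0019). With the trends on coding length and GC content removed, 22 members fell (47.8%, against 11.7% of all genes tested) and their median was -0.14. Those trends were fitted over all genes tested that have such values, not over the members, so the relation among the members may remain.

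**Figure D5:**
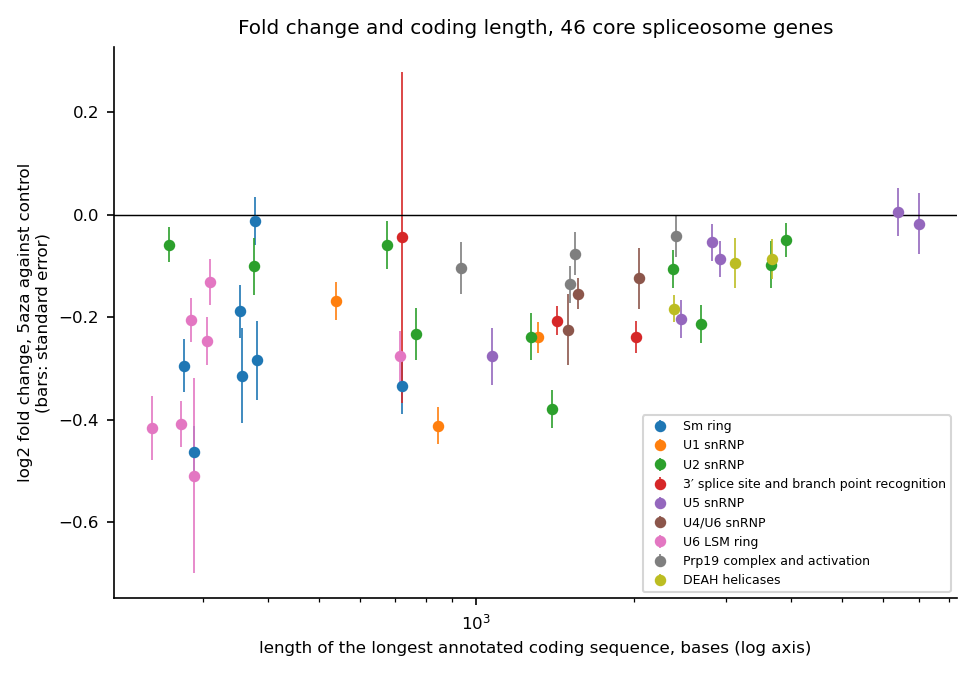
Log2 fold change (5aza against control, bars: standard error) against the length of the longest annotated coding sequence in bases (log axis) for the 46 core spliceosome genes, coloured by complex. Genes of the Sm and LSM rings at the left lie mostly below -0.1, and SNRNP200 (6408 bases) and PRPF8 (7005 bases) at the right lie near 0.

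Several members share a start region with another gene. Within 1000 bases of their starts, 15 of the 46 have a protein-coding gene that runs the other way, 16 partners in all. Of the 15 partners tested, 2 fell, 1 rose and 12 did not pass, while 13.1% of all genes tested fell and 10.6% rose. Whether neighbours change together was not tested. LSM3 fell, while XPC, the DNA damage sensor of nucleotide excision repair that starts beside it, rose from 13.3 to 16.5 FPKM (log2 change 0.32, adjusted p = 0.00267). PRPF4 fell together with its neighbour CDC26, a subunit of the anaphase-promoting complex (27.3 and 23.04 FPKM, log2 change -0.24, adjusted p = 0.0132). ORC1, of the origin recognition complex, fell from 18.7 to 14.9 FPKM next to PRPF38A, which did not pass. SNRPA, SNRNP40, LSM5 and SNRPD2 fell beside C19orf54, ZCCHC17, AVL9 and QPCTL, none of which passed. In 19 of the 46 genes the annotated span is overlapped by a gene on the other strand. No source used here says whether strand was kept, so reads of such pairs may not be told apart.

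Other genes of splicing and snRNP assembly were counted from a separate list, and the difference in share from the core genes was not tested. Of its 80 genes, 71 have values and 70 were tested. Of these, 16 fell (22.9%, against 13.1% of all genes tested), none rose by limma and 54 were not called. Their median log2 fold change was -0.10. The median of their control means was 29.1 FPKM, and of all genes between 10 and 100 FPKM 18.1% fell. Whether the share of this list goes beyond its abundance was not tested. At an unadjusted limma p under 0.05, 29 were lower and 1 was higher, against 2511 and 2096 of all 12360 genes tested. Among other proteins of the snRNPs and tri-snRNP, 5 of 9 fell, led by PHF5A, the SF3B subunit beside the branch point pocket, from 70.5 to 57.2 FPKM (log2 change -0.30, adjusted p = 0.00329). Of 7 proteins of the minor spliceosome, which removes a rare class of introns, 2 fell, with SNRNP25 going from 29.3 to 24.4 FPKM. Of 28 further Prp19, B and C complex proteins, 3 fell (10.7%, below the 13.1% of all genes tested). The lowest log2 fold change of the 3 was that of YJU2, a first-step factor (-0.27).

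Of 5 exon junction complex genes, 2 fell. MAGOHB went from 22.7 to 16.2 FPKM (log2 change -0.47, adjusted p = 0.00555) and its near-identical paralog MAGOH from 113 to 89.0 FPKM (log2 change -0.34), and reads may be split between them. Of 16 genes of snRNP assembly and import, 4 fell: GEMIN6 (log2 change -0.25), PRMT5, which methylates Sm proteins (-0.24), SMN1 (-0.23), whose near-identical copy SMN2 makes its value uncertain, and GEMIN4 (-0.17). WDR77, the partner of PRMT5, had a log2 fold change of 0.12, did not pass, and rose with libraries scaled to the same total (log2 change 0.20, adjusted p = 0.00667). Of 5 genes listed with the cytoplasmic LSM ring (LSM1, which is part of it, PATL1, LSM14A, LSM14B and LSM12), 0 fell and 0 rose. At an unadjusted limma p under 0.05, 2 of these 5 genes were lower and 0 higher, against 2511 and 2096 of all 12360 genes tested. The counts on this list rest on scaling and on 1 library. With libraries scaled to the same total 8 fell, where 6.30% of all genes tested fell. Without 5aza replicate 3, 10 fell, where 7.80% of all genes tested fell.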

How the data were processed

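Per the labels, HCT116 RNA was isolated on RNeasy columns and sequenced from standard Illumina libraries. The authors deposited 1 table of FPKM per gene for 3 control and 3 5aza libraries. Per the submitters' processing notes, STAR 2.5.1b, HTSeq 0.6.0 and DESeq2 1.10.1 were used, beside the builds GRCh38 and Rnor_6.0, without saying what each did. No source used here names the software behind the FPKM values. Columns were matched to samples through their descriptions, in which the treated libraries are called DAC while titles and protocols say 5aza.

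For 11 identifiers listed more than once, none of them a member, the one of higher mean was used. Low values of 1259 single-transcript genes were checked for steps of whole reads: at the best step, 34.6% to 41.1% lay within 0.1 of a whole number, so whole reads were not recovered, no count test was run and the depth per gene is unknown. Values were used as log2(FPKM + 0.1). A gene needed 0.5 FPKM in 3 or more libraries, which left 12360 genes. These went into limma 3.58.1 (R 4.3.3, variance trend, two-sided, Benjamini-Hochberg adjustment over all genes tested, threshold 0.05). On simulated data of 12157 genes, 50 genes were given each true log2 change. The procedure called 56% of those at -0.3 and 46% of those at 0.3. At -0.6 and 0.6 it called 88% and 90%. A gene that did not pass may therefore have changed. Far fewer genes were changed there than were called in these data, so these rates need not be those of the members. Positions, coding lengths and overlaps are from GENCODE release 29 on GRCh38, and symbols were matched by Ensembl identifier.

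The members, lists and tests were chosen with earlier results of these data known. Values in every library are given for both rings, for the most abundant gene and the 2 largest changes of each complex, for genes with a positive change, and for genes whose call depends on a setting. From the other list, the rule names the largest fall of each group; MAGOH, PRMT5, SMN1, GEMIN4, WDR77 and the genes sharing start regions were named after their values were seen. One marker of another cell type is not reported here. Protein identity within the ring pairs was planned and not computed, since protein sequences were not used here. Alternative settings were other pseudocounts, filters, scalings, no variance trend, removed trends, a replicate block, summed repeats and leaving out each library.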

Additional observations from a re-analysis of the deposited data

How the results depend on the processing

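The other settings changed the pseudocount, the filter, the scaling, the variance trend, the expression trend, the replicate block and repeated identifiers, or left out each library; removal of coding length and GC trends was added after seeing the data. The core spliceosome genes that fell numbered 25 as reported, 17 to 27 over all 18 alternatives, and 20 to 25 leaving out 1 library; 0 rose under any of them by limma. Their median log2 fold change moved from -0.19 to -0.11 with libraries scaled to the same total, -0.12 under quantile normalization, -0.11 with the expression trend removed and -0.14 with coding length and GC trends removed, and lay between -0.20 and -0.17 leaving out 1 library. Of the other splicing genes, 16 fell as reported, 8 with libraries scaled to the same total, and 10 to 18 leaving out 1 library. STRAP, WDR77 and LSM12 (3 genes) rose with libraries scaled to the same total, under quantile normalization and with the expression trend removed, and WDR77 alone (1 gene) with coding length and GC trends removed. The cause of these shifts was not tested.

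Signs turned in 10 genes, none of them called. With libraries scaled to the same total, the log2 fold change was 0.0674 for SNRPD3, 0.0207 for SNRPB2, 0.0305 for SF3B1, 0.0216 for SF3B5, 0.0218 for U2AF1, 0.0626 for PRPF8, 0.0257 for PRPF6, 0.0378 for CDC5L and 0.00337 for PLRG1. Under quantile normalization it was 0.0671 for SNRPD3, 0.00159 for SNRPB2, 0.0383 for SF3B1, 0.0557 for SF3B5 and 0.0588 for PRPF8, and with the expression trend removed 0.0724, 0.00333, 0.0351, 0.0369 and 0.0617 for the same genes. With coding length and GC trends removed it was 0.0489 for SNRPD3, 0.0291 for SF3B5 and -0.0706 for SNRNP200, and SNRNP200 was at -0.00837 with libraries centred on the median. Leaving out 1 library, SNRPD3 ranged from -0.0458 to 0.0401, PRPF8 from -0.0662 to 0.0437, SNRNP200 from -0.0346 to 0.0374 and U2AF1 from -0.205 to 0.240.

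With the replicate block, 27 core spliceosome genes fell, 24 of them among the 25 called without it, and 13.5% of all genes tested fell. Deviations from the group means of libraries with the same number correlated at 0.048 to 0.077, under a cut of 0.1 chosen here. Each library still correlated best with its own number. The numbers were not treated as pairs, since the labels give a number but no shared source, and whether the libraries are paired is uncertain. Depth is unknown, so no limit for low values is given.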
